A study of Mus musculus with 12 samples.

Results

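The genes described here, 46 of mitosis and cytokinesis, were followed in G1E-ER4, a mouse line of erythroid progenitors, after zinc chelation, iron chelation or block of heme synthesis. The members were fixed by name as genes for mitotic kinases and cyclins, the chromosomal passenger complex, the spindle checkpoint, the anaphase trigger, the kinetochore, the spindle, cytokinesis and chromosome structure. All 46 were found among the 55487 rows of each table, and all 46 were among the 11917 genes that reached 1 TPM in 3 or more libraries, so that none was lost to the filter on low values.

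The study's design asks how differentiating erythroid cells that are short of zinc, of iron or of ALAD activity differ from control cells. G1E-ER4 is 1 clonal line that has no working Gata1 gene of its own and holds a GATA1 protein joined to an estrogen receptor domain, which lets estradiol switch on maturation in culture. Every culture in all 4 groups received 100 nM β-estradiol and was collected after 24 h. Polyadenylated RNA was sequenced in 12 libraries, 3 labelled biological replicates per group. The groups were cells given 50 µM DTPA (a chelator that holds zinc and other metals outside the cell) as the zinc-deficient group, cells given 50 µM DFO (desferrioxamine, an iron chelator), cells given 0.2 mM SA as the group with ALAD inhibition (ALAD makes the pyrrole building block of heme), and control cells given none of these. The treatment protocol names DFO for the ALAD group and the sample titles name SA, and the titles were followed. P-values measure the spread between these labelled replicates, since nothing says further how the cultures were kept apart.

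At mitosis, cyclin-dependent kinase bound to B-type cyclins drives entry, the chromosomes are condensed and attached to spindle microtubules through their kinetochores, and the spindle checkpoint holds anaphase back until every kinetochore is attached. The anaphase-promoting complex with its activator CDC20 then tags securin and cyclin B for destruction, and the cell is cut apart at the midzone. Transcripts of most of these genes are made chiefly in G2 and M phase, through the MuvB complex with B-MYB and FOXM1, which reads promoter elements called the cell cycle genes homology region (CHR), and through NF-Y, which reads CCAAT boxes. Maturing erythroblasts pass through a last few divisions before they leave the cell cycle, so dividing and non-dividing cells can both be present at this stage.

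Values are TPM, transcript levels scaled per length and to a fixed total per library. Differences are of log2(TPM + 1) from limma, a linear model fitted to all tested genes over all 12 libraries, and a gene was called where its p adjusted by Benjamini and Hochberg over the 11917 genes was under 0.05. The pseudocount of 1 understates the change of genes near 1 TPM, so ratios of group mean TPM are given as well. Depth recovered from the TPM steps was between 19861984 and 24336691 reads per library. The red cell markers were present in every library: 13 of 14 were found, none at 0, with a summed level of 46810 to 56420 TPM with DTPA, 32520 to 33400 with DFO, 27280 to 29270 with SA and 42690 to 47880 in control. Of the 14 megakaryocyte markers, 6 were at 0 in every DTPA library and 9 in every control library. Of the 22 mast and myeloid markers 15 were at 0 with DTPA and 16 in control, and of the 15 lymphoid markers 14 were at 0 with DTPA and 12 in control.

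With DTPA, 45 of the 46 genes were lower than in control and 0 were higher, against 42.1% of all tested genes lower and 23.5% higher. The median difference of the 46 was -3.07 on the log2 scale, beside -0.11 over all tested genes. By the ratio of mean TPM the median gene was 11.2-fold lower, 37 genes were at least 5-fold lower and 26 at least 10-fold lower. Cdc25c, an entry phosphatase, showed the lowest ratio and was 32.7-fold lower. Cdc25b, its close relative, was the 1 gene not called. In bulk RNA a smaller share of dividing cells and less of these transcripts per dividing cell cannot be told apart.

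As a share of all TPM, the 46 genes together made up 0.0597% ± 0.00031 with DTPA, 0.322% ± 0.00276 with DFO, 0.350% ± 0.00694 with SA and 0.370% ± 0.0103 in control (SD, n = 3 each). All 3 DTPA libraries lay far below the other 9. The fall of 2-fold or more that 44 of the 46 genes showed was passed by 6.16% of all tested genes. Every DTPA library was below every control library for 45 of the 46, as for 44.1% of all tested genes. The all-gene split depends on scaling: 2796 genes were higher and 5014 lower on TPM, against 3842 and 3859 after median-of-ratios scaling, which moved the median of all genes by 0.12 (log2) and put the members' median at -2.98. The 45 members kept their call under every alternative run, except that Incenp did not reach a threshold of 2-fold. Red cell markers moved with DTPA in both directions: of the 13 tested, 8 were called lower and 3 higher. The anion exchanger Slc4a1 was 15.8-fold lower, Gata1, whose signal includes the transgene, 2.36-fold, and the erythropoietin receptor Epor 1.92-fold, while the globin Hbb-bs, which carries much of the summed level, averaged 26214 TPM with DTPA and 19234 in control and was called higher. Summed levels of other lineages' markers, which rest on few genes, were higher: the 14 megakaryocyte markers summed to 37.0 to 46.1 TPM with DTPA and 8.29 to 9.53 in control, the 22 mast and myeloid markers to 7.00 to 8.47 and 2.60 to 3.52, and the 15 lymphoid markers to 1.37 to 2.04 and 0.380 to 0.757. With DTPA the megakaryocyte sum was mostly Itgb3 (mean 17.0 TPM) and Gp1ba (18.5), with 10 of 14 markers under 1 TPM. The myeloid sum was mostly Hdc, Prg2 and Cd68, of which Cd68 was not called, and the lymphoid sum was Cd79a alone. The part of these marker changes in the members' fall was not tested.

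**Figure D1:**
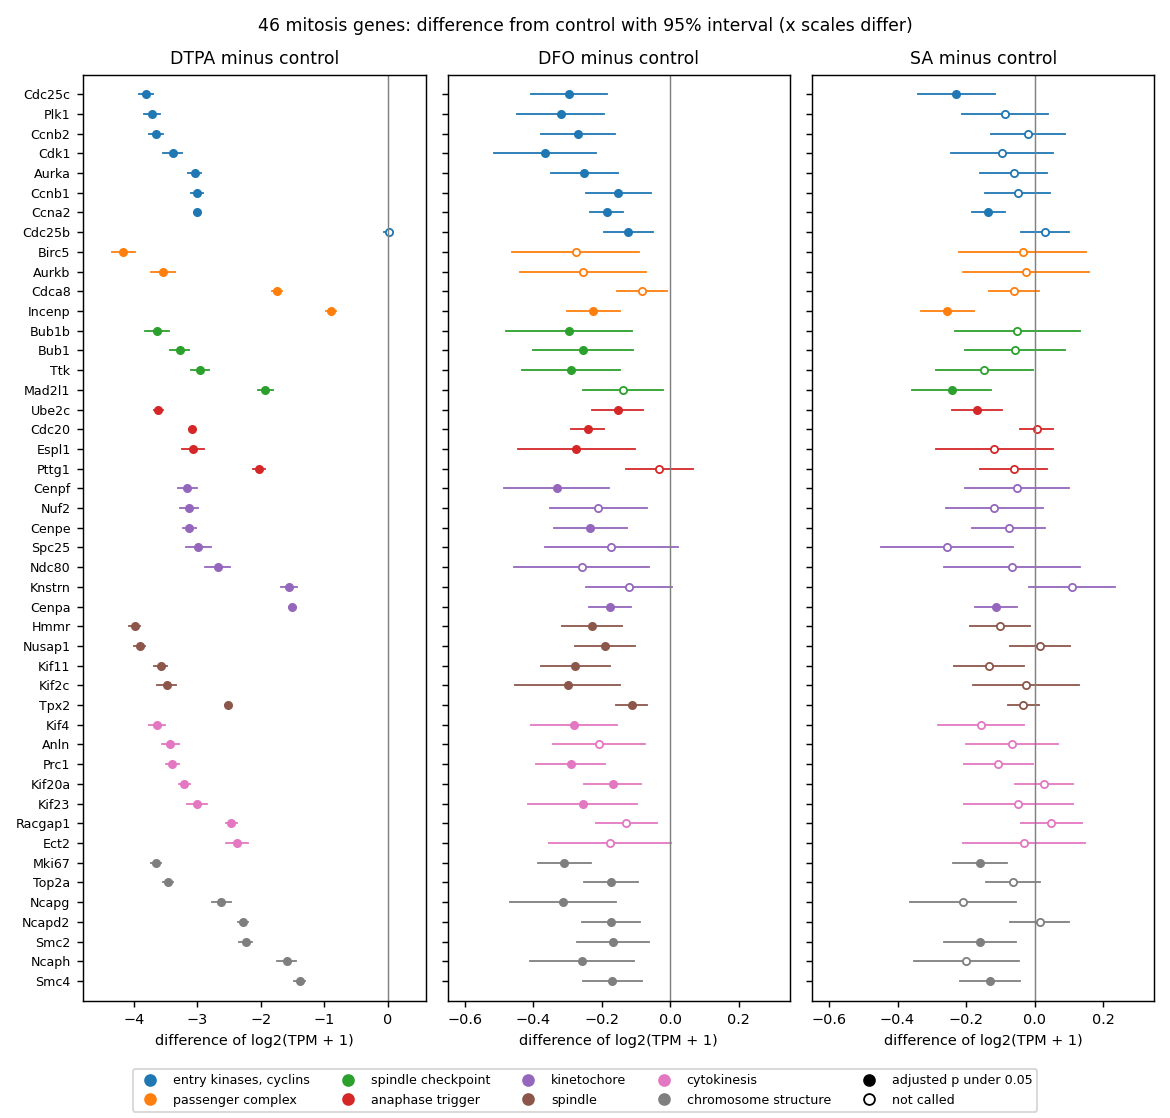
Difference of log2(TPM + 1) from control for each of the 46 genes (x axis, with 95% intervals) with DTPA (left), DFO (middle) and SA (right), grouped and coloured by role, filled where the adjusted p is under 0.05. With DTPA 45 points lie between -0.89 and -4.17 and Cdc25b lies at 0.02; with DFO all 46 points lie between -0.03 and -0.37, on a finer scale; with SA 39 of 46 are below 0.

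The promoters of 6 members are shown because these genes moved together, or, for Cdc25b, did not. Sequences are RefSeq windows on GRCm38.p6, from 250 bases before to 50 bases after the annotated start, 5′ to 3′ on the gene's strand. Capitals mark CHR-type letters (TTTGAA, its reverse TTCAAA, or TTCGAA, which reads the same on both strands and was counted once) and CCAAT boxes (CCAAT or its reverse ATTGG), each searched on its own, so that a base may belong to more than 1 match. The windows are chr10:69352863-69353162 (minus strand) for Cdk1, chr9:70421505-70421804 (minus) for Ccnb2, chr7:122159185-122159484 (plus) for Plk1, chr4:118437294-118437593 (minus) for Cdc20, chr11:117848987-117849286 (plus) for Birc5 and chr2:131186698-131186997 (plus) for Cdc25b.
Cdk1: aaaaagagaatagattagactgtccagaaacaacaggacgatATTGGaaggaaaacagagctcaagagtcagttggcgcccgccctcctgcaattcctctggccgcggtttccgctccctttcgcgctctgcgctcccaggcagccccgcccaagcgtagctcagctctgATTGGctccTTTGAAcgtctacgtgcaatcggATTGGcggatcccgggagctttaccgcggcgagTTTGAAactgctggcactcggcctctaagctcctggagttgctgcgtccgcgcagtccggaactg
Ccnb2: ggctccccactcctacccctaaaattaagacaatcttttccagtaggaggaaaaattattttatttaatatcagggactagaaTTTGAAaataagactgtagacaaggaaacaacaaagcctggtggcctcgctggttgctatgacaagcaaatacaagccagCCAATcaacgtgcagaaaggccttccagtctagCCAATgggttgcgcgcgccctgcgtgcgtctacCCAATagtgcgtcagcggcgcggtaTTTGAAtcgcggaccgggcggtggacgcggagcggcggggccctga
Plk1: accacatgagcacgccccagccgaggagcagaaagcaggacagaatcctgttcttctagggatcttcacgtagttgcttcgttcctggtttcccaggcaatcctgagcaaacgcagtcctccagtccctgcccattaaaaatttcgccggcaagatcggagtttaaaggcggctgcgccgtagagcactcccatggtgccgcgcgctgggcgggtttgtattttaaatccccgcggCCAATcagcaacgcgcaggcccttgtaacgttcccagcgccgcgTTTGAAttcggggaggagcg
Cdc20: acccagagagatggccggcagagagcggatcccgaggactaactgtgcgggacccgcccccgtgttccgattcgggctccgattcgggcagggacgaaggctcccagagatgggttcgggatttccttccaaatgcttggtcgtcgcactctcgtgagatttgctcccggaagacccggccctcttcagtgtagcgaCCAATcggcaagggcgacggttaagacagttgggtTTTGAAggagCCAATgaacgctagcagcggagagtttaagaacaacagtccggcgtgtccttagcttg
Birc5: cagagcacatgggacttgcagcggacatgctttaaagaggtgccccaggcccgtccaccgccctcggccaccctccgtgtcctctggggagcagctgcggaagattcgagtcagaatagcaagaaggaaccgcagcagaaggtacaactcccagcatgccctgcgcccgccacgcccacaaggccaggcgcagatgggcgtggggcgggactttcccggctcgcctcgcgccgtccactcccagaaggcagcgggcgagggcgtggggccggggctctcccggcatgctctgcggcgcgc
Cdc25b: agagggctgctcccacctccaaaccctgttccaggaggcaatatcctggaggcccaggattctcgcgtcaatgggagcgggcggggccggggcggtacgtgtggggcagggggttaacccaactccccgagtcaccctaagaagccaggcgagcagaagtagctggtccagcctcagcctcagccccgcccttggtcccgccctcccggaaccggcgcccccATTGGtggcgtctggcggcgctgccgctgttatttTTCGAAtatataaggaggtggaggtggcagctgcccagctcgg
Counted from the first base of the start as position 1, the CHR-type letters nearest the start began at -15 in Cdk1, 5 in Ccnb2, 31 in Plk1, -18 in Cdc20 and 8 in Cdc25b. Birc5, which had the deepest fall on the log2 scale, had neither motif in this window, and Cdc25b, which was not called lower, had TTCGAA and 1 CCAAT box.

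RefSeq windows were found for 39 of the 46 genes, and Aurkb, Ccna2, Cdc25c, Incenp, Kif20a, Smc4 and Tpx2 were not matched. Of these 39, 30 (76.9%) held CHR-type letters, against 16.4% of the 7841 tested genes with a window and 21.7% of all 27025 genes with one. Within 50 bases of the start 27 (69.2%) held them, against 4.43% of tested genes. TTTGAA in either direction was present in 28 (71.8%), against 14.1%, and TTCGAA in 4 (10.3%), against 2.56%. A CCAAT box was present in 29 (74.4%), against 44.7%, and 2 or more in 18 (46.2%), against 18.7%. The median log2 difference with DTPA was -3.08 for the 27 genes with CHR-type letters within 50 bases of the start and -3.07 for the other 12 of the 39, some of which held such letters farther away. A match describes the letters of a window and is not a site, and no match says only that these letters are not in the window.

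**Figure D2:**
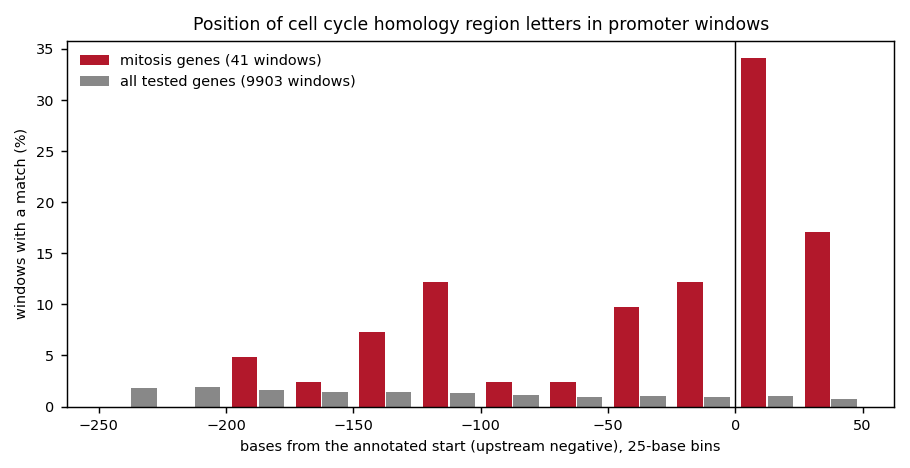
Share of promoter windows (y axis, percent) with CHR-type letters starting in each 25-base bin (x axis, bases from the annotated start), for the 41 windows of the mitosis genes and the 9903 windows of all tested genes, which include them. In the bin just after the start 34.1% of the mitosis windows held a match, against 1.05% of all windows, and the level in all windows stayed between 0.778% and 1.92% throughout.

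Among the 8 genes of mitotic entry, 7 fell with DTPA and Cdc25b did not. Cdk1, the kinase that drives entry, had 0.883, 1.10 and 0.933 TPM with DTPA, 14.4, 14.9 and 15.9 with DFO, 18.6, 17.0 and 19.5 with SA and 20.7, 19.6 and 18.7 in control. With DTPA it was 20.2-fold lower than in control (log2 -3.39 ± 0.068, SE, limma adjusted p = 2.8e-12). Its DTPA libraries held about 1 TPM each, and its DFO libraries lay below all of the SA and control libraries. Ccnb1, the main B-type cyclin partner of CDK1, had 29.4, 28.1 and 28.4 TPM with DTPA, 212, 217 and 212 with DFO, 235, 219 and 236 with SA and 254, 223 and 236 in control, a ratio of means 8.30-fold lower with DTPA (log2 -3.01 ± 0.043, SE). Plk1, the polo kinase that acts from entry to cytokinesis, had 4.47, 5.17 and 5.26 TPM with DTPA, 59.98, 60.4 and 64.3 with DFO, 76.2, 67.5 and 74.1 with SA and 78.7, 75.6 and 76.8 in control, and was 15.5-fold lower with DTPA (log2 -3.71 ± 0.058). The order was the same in these 3 genes: the DTPA libraries were lowest, the DFO libraries next, and the SA and control libraries overlapped.

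The CDC25 phosphatases switch on CDK1 by removing inhibitory phosphates, and the 2 genes of this family among the 46 diverged. Cdc25c had 0.714, 0.653 and 0.708 TPM with DTPA, 19.1, 17.96 and 17.8 with DFO, 19.2, 18.8 and 19.5 with SA and 24.1, 21.8 and 22.1 in control (log2 with DTPA -3.80 ± 0.051, limma adjusted p = 1.36e-13). Cdc25b had 55.9, 57.3 and 54.9 TPM with DTPA, 52.0, 49.0 and 51.1 with DFO, 58.3, 54.5 and 56.7 with SA and 54.7, 54.9 and 56.1 in control. The DTPA and control libraries of Cdc25b overlapped, with a difference of 0.02 and a 95% interval from -0.05 to 0.09 (limma adjusted p = 0.611). That call depends on scaling: the difference was 0.15 and called higher after median-of-ratios scaling (adjusted p = 0.00116) and 0.15 after trimmed-mean scaling (adjusted p = 0.00125), and 0.10 by voom on recovered reads (adjusted p = 0.0234). No alternative run called Cdc25b lower with DTPA than in control. Of the other members, Ccnb2 fell 13.8-fold, Aurka, the spindle pole kinase, 8.74-fold and Ccna2, the cyclin of S and G2 phase, 8.20-fold.

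**Figure D3:**
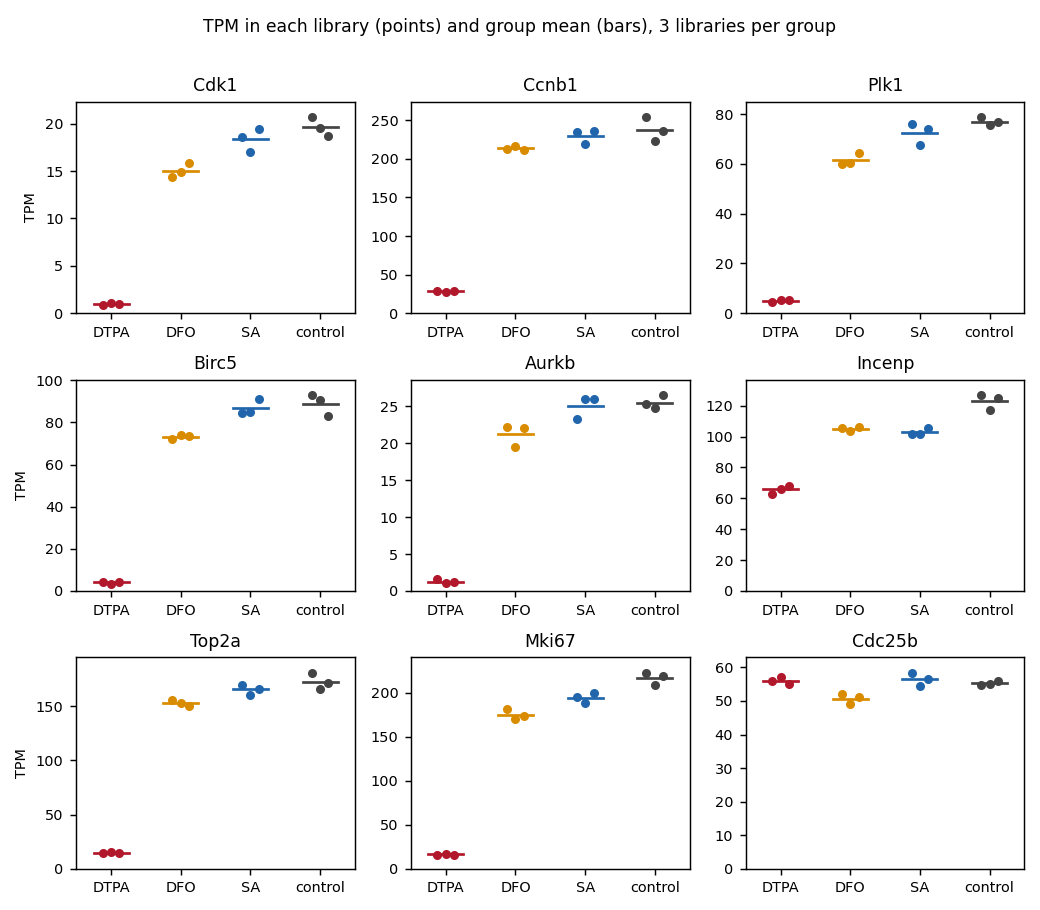
TPM (y axis, from 0) in each library for 9 of the genes, with DTPA, DFO, SA and control side by side; points are the 3 libraries of a group and bars their mean. In 7 panels (Cdk1, Ccnb1, Plk1, Birc5, Aurkb, Top2a, Mki67) the DTPA points lie close to the baseline; Incenp keeps 65.8 TPM with DTPA against 123 in control, and Cdc25b is level at 56.0 and 55.2.

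The chromosomal passenger complex corrects faulty attachments and later marks the midzone, and its 4 subunits fell to different depths. Birc5 (survivin), a small subunit that places the complex on chromosomes, had 4.50, 3.23 and 4.39 TPM with DTPA, 72.0, 74.1 and 73.4 with DFO, 84.6, 84.9 and 90.9 with SA and 92.8, 90.7 and 83.2 in control, 22.0-fold lower with DTPA and the deepest log2 difference of the 46 (-4.17 ± 0.084). Aurkb, the kinase of the complex, had 1.57, 1.05 and 1.23 TPM with DTPA, 22.2, 19.5 and 22.1 with DFO, 23.2, 26.1 and 26.0 with SA and 25.3, 24.8 and 26.5 in control (log2 -3.54 ± 0.084). Every DTPA library of both was under 5 TPM, while their SA and control libraries overlapped, and neither was called with DFO or SA. Incenp, the scaffold that holds the others, had 62.8, 66.4 and 68.1 TPM with DTPA, 105, 104 and 106 with DFO, 102, 101 and 105 with SA and 127, 117 and 125 in control. Its libraries separated without overlap between DTPA and every other group, yet its fall of 1.87-fold (log2 -0.89 ± 0.035, limma adjusted p = 7.77e-10) was the shallowest of the 45. Cdca8 (borealin) lay between, 3.41-fold lower.

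All 4 spindle checkpoint genes and all 4 anaphase genes fell with DTPA. Bub1b, which codes for the checkpoint protein BUBR1, had 1.54, 1.39 and 1.14 TPM with DTPA, 25.1, 20.3 and 23.2 with DFO, 26.7, 27.0 and 27.8 with SA and 28.9, 26.0 and 29.7 in control. Bub1, the checkpoint kinase at the kinetochore, had 2.84, 2.30 and 2.80 TPM with DTPA, 28.9, 28.5 and 28.3 with DFO, 33.3, 31.0 and 34.6 with SA and 36.0, 31.9 and 35.1 in control. The DTPA libraries of both lay far under every other library, with log2 differences of -3.63 ± 0.083 and -3.28 ± 0.066. Mad2l1, the checkpoint protein that holds back CDC20, fell less: 3.52, 3.87 and 3.78 TPM with DTPA, 15.8, 15.0 and 15.3 with DFO, 14.0, 15.0 and 13.6 with SA and 17.3, 17.4 and 16.3 in control, 4.57-fold lower with DTPA. Ttk, the kinase that starts checkpoint signalling, was 17.9-fold lower, but rested on as few as 24 reads in a DTPA library, against 280 or more in each library of the other groups.

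Ube2c, the ubiquitin-conjugating enzyme of the anaphase-promoting complex, had 19.8, 18.2 and 18.7 TPM with DTPA, 212, 226 and 216 with DFO, 219, 217 and 211 with SA and 246, 241 and 241 in control. Cdc20, the activator of the complex, had 20.002, 19.6 and 19.3 TPM with DTPA, 147, 148 and 145 with DFO, 175, 171 and 177 with SA and 176, 173 and 171 in control. All DTPA libraries of both lay far below the other groups, and the log2 differences were -3.62 ± 0.033 and -3.08 ± 0.022. Pttg1 (securin), which keeps separase inactive, had 8.78, 9.39 and 9.58 TPM with DTPA, 39.3, 41.4 and 39.0 with DFO, 41.2, 37.8 and 38.4 with SA and 39.8, 42.1 and 40.6 in control, 4.41-fold lower with DTPA and overlapping in the other 3 groups. Espl1 (separase), the protease that opens cohesin, was 19.0-fold lower with DTPA.

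The 7 kinetochore and centromere genes all fell with DTPA, over a range of log2 differences from -1.50 to -3.16. Cenpf, a large protein of the outer kinetochore, had 0.519, 0.456 and 0.629 TPM with DTPA, 10.3, 10.1 and 9.32 with DFO, 12.6, 11.7 and 12.4 with SA and 13.4, 11.8 and 12.9 in control. Nuf2, a subunit of the NDC80 complex that grips microtubules, had 1.62, 1.56 and 1.33 TPM with DTPA, 18.1, 17.97 and 18.04 with DFO, 20.1, 19.0 and 18.8 with SA and 22.9, 20.9 and 19.4 in control. Cenpf was the member with the lowest mean level with DTPA and was 23.8-fold lower, and Nuf2 was 14.0-fold lower. Cenpa, the histone H3 variant that marks centromeres, had 40.2, 40.2 and 39.5 TPM with DTPA, 99.5, 102 and 103 with DFO, 105, 108 and 106 with SA and 116, 118 and 110.4 in control, 2.88-fold lower. Ndc80 and Spc25, both of the same complex as Nuf2, were 9.57-fold and 10.3-fold lower, Cenpe, a kinetochore motor, 11.2-fold and Knstrn, a kinetochore and spindle protein, 3.28-fold.

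The 5 spindle genes all fell, and their median log2 difference of -3.58 was the lowest of the 8 role groups. Hmmr, a microtubule-binding protein of spindle poles, had 3.98, 4.19 and 4.15 TPM with DTPA, 70.1, 65.7 and 68.8 with DFO, 76.7, 72.0 and 75.0 with SA and 84.1, 77.0 and 79.2 in control. Nusap1, which bundles spindle microtubules near chromatin, had 9.07, 9.22 and 8.95 TPM with DTPA, 135, 129.7 and 130.4 with DFO, 154, 143 and 159 with SA and 155, 144 and 152 in control. They were 19.5-fold and 16.6-fold lower with DTPA, with log2 differences of -3.99 ± 0.04 and -3.91 ± 0.04. Tpx2, which activates AURKA on the spindle and was the highest of the 46 in control, had 49.3, 49.5 and 48.8 TPM with DTPA, 267, 263 and 266 with DFO, 287, 277 and 278 with SA and 292, 282 and 288 in control, 5.84-fold lower with DTPA. The motors Kif11, which pushes the poles apart, and Kif2c, which takes microtubules down at their ends, were 18.4-fold and 20.2-fold lower.

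The 7 genes of the midzone and cytokinesis fell by log2 differences of -2.38 to -3.63 with DTPA. Kif4, a chromosome-bound motor that also shapes the midzone, had 3.41, 2.98 and 2.73 TPM with DTPA, 41.6, 40.1 and 38.5 with DFO, 44.1, 44.4 and 42.7 with SA and 50.6, 47.0 and 49.0 in control. Anln (anillin), the scaffold of the contractile ring, had 1.98, 1.77 and 1.89 TPM with DTPA, 26.3, 25.7 and 25.4 with DFO, 28.7, 27.3 and 29.7 with SA and 32.4, 27.1 and 30.5 in control. Their ratios were 16.1-fold and 15.9-fold lower. Ect2, the exchange factor that switches on RHOA at the equator, had 2.37, 2.23 and 2.91 TPM with DTPA, 16.2, 15.4 and 13.6 with DFO, 16.8, 16.2 and 17.3 with SA and 17.8, 17.2 and 16.3 in control, 6.85-fold lower. Prc1, which bundles midzone microtubules, was 13.2-fold lower, and the midzone motors Kif20a and Kif23 11.2-fold and 11.3-fold. Racgap1, which pairs with the KIF23 motor in centralspindlin, was 6.11-fold lower.

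Chromosome structure genes all fell as well, with the shallowest median of the 8 role groups, -2.28 over 7 genes. Mki67, whose protein coats mitotic chromosomes and is the common proliferation marker Ki-67, had 16.0, 17.0 and 15.9 TPM with DTPA, 181, 169.9 and 174 with DFO, 195, 189 and 199 with SA and 222, 209 and 219 in control. Top2a, the topoisomerase that untangles sister chromatids, had 14.4, 15.3 and 14.4 TPM with DTPA, 155, 153 and 150.4 with DFO, 169.8, 160.1 and 166 with SA and 180.4, 166 and 171 in control. Both were more than 10-fold lower with DTPA, at 13.3-fold and 11.7-fold. Smc4, a core subunit of condensin, had 67.8, 68.0 and 68.2 TPM with DTPA, 165, 154 and 159 with DFO, 168, 156 and 166 with SA and 187, 169 and 181 in control, 2.63-fold lower, and was the highest of the 46 with DTPA. Its partner subunit Smc2 was 5.11-fold lower, and the condensin I subunits Ncapd2, Ncapg and Ncaph were 5.06-fold, 8.35-fold and 3.26-fold lower.

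The order of levels among the members differed between DTPA and control. In control the highest mean levels were Tpx2 at 287 TPM, Ccna2 at 274, Ube2c at 243, Ccnb1 at 238 and Mki67 at 217, and the lowest was Ttk at 12.0. With DTPA the highest were Smc4 at 68.0 TPM, Incenp at 65.8, Cdc25b at 56.0 and Tpx2 at 49.2, and the lowest was Cenpf at 0.535. The median of the 46 mean levels was 4.12 TPM with DTPA, 40.0 with DFO, 43.4 with SA and 46.3 in control. With DTPA, 5 genes averaged under 1 TPM and 25 under 5 TPM, while 0 genes did so in any other group. Neighbours in the order overlapped in their libraries in 32 of 45 pairs with DTPA and 32 of 45 in control, so that most single steps of the order are not resolved. Counting is thinnest with DTPA, where 16 members had under 100 reads in at least 1 library.

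With DFO most of the genes were lower too, by a far smaller amount. Of the 46, 34 were called lower than in control and 0 higher, against 2.28% of all tested genes lower and 8.39% higher. All 46 differences were negative, between -0.03 (Pttg1) and -0.37 (Cdk1), with a median of -0.23 beside 0.05 over all tested genes, and by the ratio of means the median gene was 15.2% lower. Every DFO library lay below every control library for 44 genes, against 6.47% of all tested genes. Without DFO replicate 3 the count was 19, and the members' differences with DFO stayed negative for all 46 under every scaling run. On median-of-ratios scaling 40 members were called lower, but the all-gene split turned as well, to 423 higher and 646 lower against 1000 and 272 on TPM.

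The 6 largest falls among the genes called with DFO were in Cdk1 (log2 -0.37 ± 0.068, SE), Cenpf (-0.33 ± 0.069), Plk1 (-0.32 ± 0.058), Ncapg (-0.31 ± 0.07), Mki67 (-0.31 ± 0.036) and Kif2c (-0.30 ± 0.07). Ncapg had 2.03, 2.33 and 2.61 TPM with DTPA, 16.0, 15.6 and 14.6 with DFO, 16.8, 15.9 and 17.1 with SA and 20.7, 18.8 and 18.6 in control. Kif2c had 0.998, 1.22 and 1.198 TPM with DTPA, 18.7, 19.0 and 17.6 with DFO, 24.2, 22.9 and 20.5 with SA and 24.1, 23.2 and 21.5 in control. In both the DFO libraries lay below all control libraries by a margin close to the range within control. The calls of Cdk1, Plk1 and Mki67 held with any 1 library left out. Cenpf was lost without DFO replicate 3 (adjusted p = 0.0503), Ncapg without DFO replicate 3 (0.0636) or control replicate 1 (0.0622), and Kif2c without DFO replicate 1 (0.0519) or 3 (0.0732) or control replicate 1 (0.0717) or 2 (0.0642).

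By role, all 8 entry genes, all 5 spindle genes and all 7 chromosome structure genes were called lower with DFO, against 1 of 4 passenger genes (Incenp), 3 of 4 checkpoint genes, 3 of 4 anaphase genes, 3 of 7 kinetochore genes and 4 of 7 cytokinesis genes. These counts did not rank the size of the falls. Median differences with DFO were -0.26 for entry, -0.23 for spindle and -0.17 for chromosome structure genes. The medians were -0.24 for passenger, -0.27 for checkpoint, -0.20 for anaphase, -0.21 for kinetochore and -0.21 for cytokinesis genes. Cdc25b, which did not fall with DTPA, was among those called with DFO (log2 -0.12 ± 0.032, limma adjusted p = 0.0348). That call and the call of Ccnb1 (adjusted p = 0.047) were near the threshold: each was lost without DFO replicate 2 (0.115 for Cdc25b and 0.0852 for Ccnb1), DFO replicate 3 (0.0704 and 0.117), control replicate 1 (0.0652 and 0.126) or control replicate 3 (0.107 and 0.101), Cdc25b also without control replicate 2 (0.0732), and Ccnb1 also without DFO replicate 1 (0.116), any 1 of the DTPA libraries (0.053 to 0.0593) or SA replicate 1 (0.0593) or 3 (0.0564). With only the 6 libraries compared both calls were lost (0.0691 for Cdc25b and 0.0988 for Ccnb1), and Ccnb1 was also lost with no filter on low values (0.0968). Cdc25b was also lost with a block for the replicate number (0.0524). Near the threshold too were Smc2 (limma adjusted p = 0.0495), Espl1 and Kif23 (both 0.0455) and Bub1b (0.0454). Of 24 alternatives, Smc2, Espl1 and Kif23 each lost the call in 14, Bub1b in 12 and Ncaph in 10. Ccnb1 lost it in 13 and Cdc25b in 8. Birc5 and Aurkb, both with a deep fall with DTPA, had differences of -0.28 and -0.25 with DFO and were not called (adjusted p = 0.0605 and 0.0791), although their DFO libraries lay below all control libraries. Of the 34 calls, 18 held under all alternatives run except a threshold of 2-fold, which 0 of the 46 reached, against 0.0923% of all tested genes that fell so far.

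SA gave 9 members called lower and 0 higher, against 6.75% of all tested genes lower and 15.4% higher. The median difference was -0.07, beside 0.05 over all tested genes, and 39 of the 46 differences were negative. The 9 were Ccna2, Cdc25c, Incenp, Mad2l1, Ube2c, Cenpa, Smc2, Smc4 and Mki67, and every SA library lay below every control library for 18 of the 46, against 11.7% of all tested genes. The 6 largest of the called falls were in Incenp (-0.25 ± 0.035, SE), Mad2l1 (-0.24 ± 0.053), Cdc25c (-0.23 ± 0.051), Ube2c (-0.17 ± 0.033), Smc2 (-0.16 ± 0.048) and Mki67 (-0.16 ± 0.036). Smc2 had 9.28, 9.45 and 9.97 TPM with DTPA, 44.8, 42.0 and 43.6 with DFO, 42.7, 41.8 and 46.7 with SA and 51.2, 47.4 and 48.3 in control, so that its highest SA library came close to its lowest control library.

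The SA count moved with the setting: 21 members were called lower after median-of-ratios scaling, 22 after trimmed-mean scaling, 15 with the globin genes removed, 14 with a pseudocount of 5 and 20 by voom on recovered reads. The all-gene split moved too, with 1124 higher and 1624 lower after median-of-ratios scaling, against 1838 and 804 on TPM. Smc2 was lost without control replicate 1 (adjusted p = 0.118) or 3 (0.0673) or SA replicate 1 (0.106) or 2 (0.124), and Cenpa without control replicate 2 (0.054) or SA replicate 1 (0.0513). Smc4 was lost without control replicate 1 (0.128) or 3 (0.102), SA replicate 2 (0.135) or 3 (0.0618) or DFO replicate 3 (0.0511). Both Smc2 and Smc4 were also lost with no filter on low values (0.0623 and 0.0748) and with only the 6 libraries compared (0.0747 and 0.0945). The other 6 calls held under all alternatives run except the threshold of 2-fold, which 0 of the 46 reached with SA, against 0.21% of all tested genes that fell so far. The 3 treatments were compared with the same 3 control libraries, so their calls are not independent: 8 members were called lower with all 3 treatments, and Mad2l1 was called with DTPA and SA but not with DFO.

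Set directly against each other, DTPA stood apart from both of the other treatments. Against DFO, 45 members were lower with DTPA and Cdc25b was higher (log2 0.14 ± 0.032, limma adjusted p = 0.00211), beside 46.4% of all tested genes lower and 19.6% higher. Against SA, 45 were lower with DTPA and Cdc25b was not called (-0.01 ± 0.032, limma adjusted p = 0.779), beside 47% of all tested genes lower and 20.1% higher. After median-of-ratios scaling Cdc25b was called higher with DTPA than with SA (0.18, limma adjusted p = 0.000363). DFO against SA left 16 members lower and 0 higher, beside 6.3% of all tested genes lower and 7.22% higher, with a median of -0.15 beside 0 over all tested genes. These 16 were Cdk1, Ccnb2, Cdc25b, Plk1, Aurka, Cdc20, Cenpf, Knstrn, Kif2c, Tpx2, Nusap1, Kif20a, Prc1, Racgap1, Ncapd2 and Mki67. Cdc20, with the lowest adjusted p of the 46 in this comparison, was at 147, 148 and 145 TPM with DFO and 175, 171 and 177 TPM with SA (log2 -0.25 ± 0.022, limma adjusted p = 3.87e-05), with no overlap between the groups. The count of 16 fell to 8 without DFO replicate 2, 8 without DFO replicate 3, 6 without SA replicate 1 and 9 without SA replicate 3, and was 30 by voom on recovered reads.

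The other genes of mitosis, in 6 lists outside the 46, differed in how far they changed with DTPA. These lists, like the members, were chosen with earlier results of these data known. Of 36 other kinetochore and checkpoint genes 35 fell and 1 rose, with a median log2 difference of -1.59. Of 31 other spindle, motor and cytokinesis genes 30 fell and 1 rose, with a median of -2.30. Over all tested genes 42.1% were lower and 23.5% higher with DTPA, with a median of -0.11. Spc24, the partner of SPC25 in the NDC80 complex, fell 24.7-fold to 1.36, 0.624 and 1.35 TPM with DTPA, against 26.6, 28.7 and 27.4 in control. Kntc1, a checkpoint protein that recruits dynein, and Sgo1 (shugoshin), which guards centromeric cohesion, fell 9.66-fold and 9.45-fold, and the spindle genes Ckap2l, Aspm and Kif14 fell 15.4-fold, 19.6-fold and 29.1-fold. The 2 exceptions, named after their values were seen, were Zwint, a bridge between the kinetochore and the checkpoint, and Psrc1, a microtubule-binding protein. Zwint had 436, 437 and 439.8 TPM with DTPA and 371, 355 and 366 in control (log2 0.27 ± 0.022). Psrc1 had 89.1, 87.1 and 85.0 TPM with DTPA and 46.5, 43.4 and 44.3 in control (log2 0.95 ± 0.032), so that all of the DTPA libraries of both were above all control libraries.

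The anaphase-promoting complex itself and the cohesin machinery had medians close to that of all tested genes or modestly below it. Of 16 genes in the list of the complex, 10 fell, 2 rose and 4 were not called, with a median of -0.24, which is 62.5% lower and 12.5% higher beside 42.1% and 23.5% of all tested genes. Its largest falls were in Fbxo5 (EMI1, an inhibitor of the complex rather than a core subunit), 13.7-fold, Anapc5, 3.55-fold, and Anapc11, the RING subunit, 1.99-fold. Anapc5 had 45.6, 47.0 and 45.4 TPM with DTPA and 160.0, 167 and 163 in control, with no overlap. Of 14 cohesin and condensin II genes, 13 fell and 1 rose with a median of -0.50. That is 92.9% lower and 7.14% higher, beside 42.1% and 23.5% of all tested genes, so most of this list fell, by small amounts. The largest of these falls were in Ncapg2, a condensin II subunit, 8.42-fold, Cdca5 (sororin), 2.67-fold, and Ncapd3, 2.55-fold. Of 12 genes of entry and exit control, 7 fell, 3 rose and 2 were not called, which is 58.3% lower and 25% higher, beside the same all-gene shares of 42.1% and 23.5%. The kinases Wee1 and Pkmyt1, which inhibit CDK1, and Mastl (Greatwall), which protects its substrates, were 4.26-fold, 3.22-fold and 6.28-fold lower.

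Of the 12 regulators of G2 and M transcription, 10 fell, 0 rose and 2 were not called with DTPA, with a median of -0.53. Mybl2 (B-MYB) had 0.970, 1.52 and 1.13 TPM with DTPA and 21.3, 17.8 and 21.1 in control, 16.6-fold lower. Foxm1 had 0.879, 1.22 and 0.800 TPM with DTPA and 11.1, 11.5 and 11.8 in control, 11.9-fold lower. Of the MuvB core subunits, Lin9 was 1.97-fold lower (log2 -0.84 ± 0.077) and Lin54, the subunit that contacts the CHR, 1.71-fold lower (-0.74 ± 0.051). Rbl1 (p107) fell 5.16-fold, and E2f4, the E2F of the repressive DREAM complex, had 62.7, 60.6 and 59.8 TPM with DTPA and 69.2, 66.4 and 68.3 in control (log2 -0.15 ± 0.027), a call that was lost after median-of-ratios scaling (-0.02, adjusted p = 0.539) and by voom on recovered reads (-0.08, adjusted p = 0.0719). With DFO 0 of these 12 were called in the main run, while Foxm1 and Mybl2 had differences of -0.25 and -0.30 (limma adjusted p = 0.173 and 0.0644). Mybl2 was called lower with DFO after median-of-ratios (adjusted p = 0.034) or trimmed-mean scaling (0.0336) and with a pseudocount of 5 (0.0219). So it was without control replicate 2 (0.0381) or DTPA replicate 1 (0.0465) or 2 (0.0288). With SA 1 was called, E2f4, which rose (0.20 ± 0.027). Voom on recovered reads called Mybl2 (0.000794) and Foxm1 (0.023) lower with DFO, and Mybl2 (0.0139) and Rbl1 (0.046) with SA. Rbl1 was also called lower with SA when control replicate 3 was left out (0.046). Over all 121 genes of the 6 lists, 20 were called with DFO (2 higher, 18 lower) and 18 with SA (4 higher, 14 lower), and 113 with DTPA (8 higher, 105 lower). The shares over all tested genes were 8.39% higher and 2.28% lower with DFO, 15.4% and 6.75% with SA, and 23.5% and 42.1% with DTPA.

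**Figure D4:**
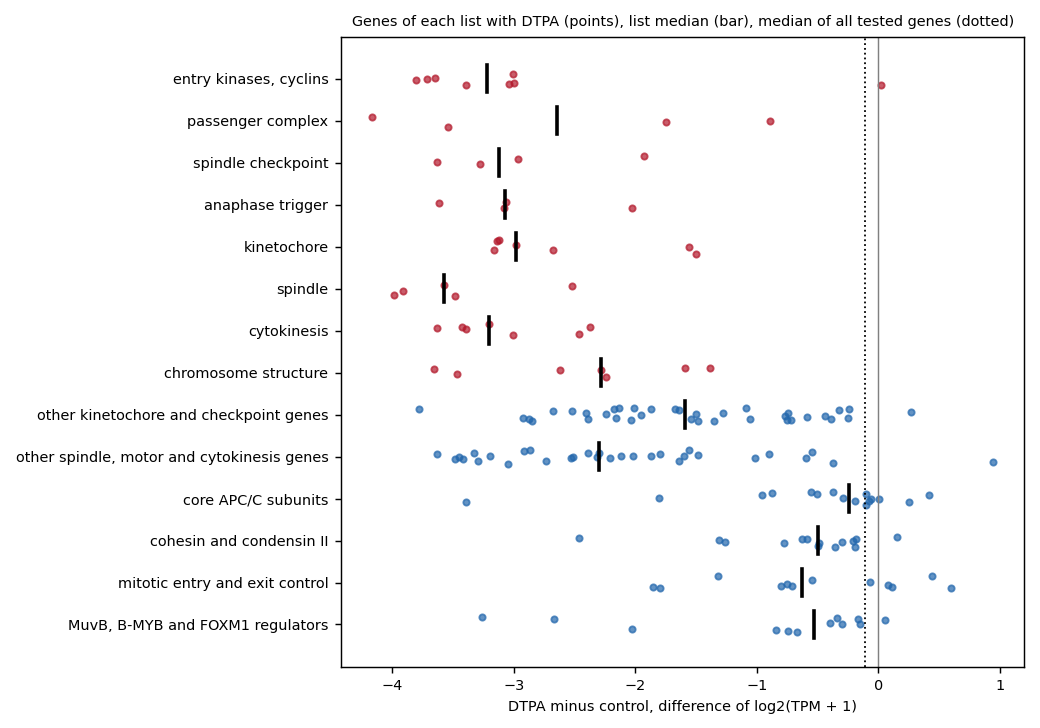
Difference of log2(TPM + 1) between DTPA and control (x axis) for each gene (points) of the 8 role groups (red) and of the 6 other lists (blue), with the list median as a bar and the median of all tested genes, -0.11, as a dotted line. The 8 role groups have medians between -2.28 and -3.58, the other lists between -0.24 and -2.30.

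The members were spread over the genome and varied in length. They lay on 16 chromosomes, 10 of them on chromosome 2, with exon lengths from 1531 bases (Ccnb2) to 15433 (Cenpf). Exons of 15 members overlap those of another annotated gene, 13 of them on the opposite strand, while the strand setting of the counting is not given in the sources used here. For 8 of these members the partner reached 5 TPM in DTPA or control cells. Kif20a shares 1271 bases with Cdc23, Ncapg 944 with Lcorl, Prc1 911 with Rccd1 and Kif4 832 with Pdzd11. Cdc23 averaged 17.0 TPM with DTPA and 24.5 in control, and Pdzd11 93.5 and 164. Lcorl averaged 7.95 TPM with DTPA and 12.8 in control, and Rccd1 6.79 and 6.46. Of the others among the 8, Ccna2 shares 510 bases with Exosc9, Cdca8 232 with 9930104L06Rik, Nusap1 172 with Oip5 and Cdc20 53 with Elovl1. Elovl1 averaged 338 TPM with DTPA, 488 with DFO, 520 with SA and 482 in control, above Cdc20 in each group. The levels of all 8 members are uncertain. The cyclin gene Ccnb1 has a pseudogene copy, Ccnb1-ps, which averaged 0.672 TPM with DTPA, 6.81 with DFO, 6.97 with SA and 6.51 in control, and reads could be split between the gene and this copy.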

How the data were processed

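The authors deposited 1 table of TPM (transcript levels scaled for length and to a fixed total) per library, with 55487 gene rows, and these tables are the only measurements used. Per the submitters' processing notes, reads were processed with Trimmomatic 0.33, FastQC, HISAT2 2.1.0, featureCounts and edgeR on mm10, and per the labels' protocols the kit was strand-specific. Other settings, the strand setting of the counting among them: not given in the sources used here. TPM removes depth, so a fall in a few very abundant transcripts raises all others, and this is why other scalings were tried.

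The 11917 genes that reached 1 TPM in 3 or more libraries entered the test on log2(TPM + 1) with limma 3.58.1 in R 4.3.3, with 1 mean per group over all 12 libraries, 8 residual degrees of freedom, a trended empirical Bayes step and Benjamini-Hochberg adjustment over all tested genes at 0.05. For the 114 symbols on more than 1 row (234 rows), the row with the highest mean was kept. Reads were recovered from TPM steps and GENCODE exon length, which gave whole reads within 0.1 for 98.8% to 99.0% of values up to 200 reads. These reads served for depth and for voom as an alternative added after the data were seen. Replicates differed by more than sampling noise (chi-square per degree of freedom 2.04 to 5.61). Promoter windows came from RefSeq on GRCm38.p6. The fit was also run on simulated reads with changes planted in a small set of genes. Those changes were smaller than most of the members' falls with DTPA, and no result here rests on that run. Python 3.11.15, numpy 2.4.6, pandas 2.3.3 and matplotlib 3.10.9 were used for the rest.

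The members and the other lists were chosen with earlier results of these data known. Values in every library are given, in each role group, for the 2 members with the largest fall and the 1 with the smallest change with DTPA, for up to 6 members called with DFO or SA, and always for Birc5, Mki67, Cdk1, Ccnb1, Aurkb, Plk1 and Top2a. Of the other lists up to 3 called genes each are named, and always Foxm1, Mybl2, Lin9, Lin54 and E2f4. Alternatives were other pseudocounts, filters, scalings, a robust step, a fold threshold, a block for the replicate number, only the 6 libraries compared, and 1 library left out at a time.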

Additional observations from a re-analysis of the deposited data

How the results depend on the processing

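With DTPA against control, 45 members were called lower in every alternative run but the fold threshold, which left 44. With a threshold of at least 1 on the log2 scale, 0 members remained with DFO against control, 0 with SA against control and 0 with DFO against SA. The count with SA was 14 with a pseudocount of 5, 21 after median-of-ratios scaling, 22 after trimmed-mean scaling, 15 with globin genes removed and 20 by voom on recovered reads, against 9, and voom called 30 members with DFO against SA, against 16. Cdc25b, -0.01 with DTPA against SA, was 0.1769 after median-of-ratios and 0.1765 after trimmed-mean scaling, both called higher. Scaling divided the TPM of every gene in a library by the same factor. The median-of-ratios factors were 0.9019 to 0.9241 in the DTPA libraries and 1.041 to 1.052 in the SA libraries. Leaving out 1 library gave 45 to 45 members with DTPA, 19 to 35 with DFO and 7 to 13 with SA against control, 46 to 46 with DTPA against DFO, 45 to 45 with DTPA against SA and 6 to 20 with DFO against SA. Over all tested genes, in the same order, it gave 7329 to 7801, 843 to 1250, 2040 to 2621, 7348 to 7832, 7523 to 7977 and 1133 to 1579. The other mitotic lists gave 112 to 114, 10 to 27 and 10 to 19 against control. The fold threshold left 1137, 22, 41, 1077, 1175 and 30 of all genes and 62, 0 and 0 of the other lists. The other lists had 36 genes called with DFO after either scaling and 38 by voom, and 32, 33 and 37 with SA. With only the 6 libraries compared, 802 genes were called with DFO against control.

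Scaling moved the median of all genes by 0.115 with DTPA against control, 0.165 against DFO and 0.1657 against SA. After median-of-ratios scaling the split of all genes was 3775 higher and 3806 lower for DTPA against DFO, against 2330 and 5527 on TPM, and 3794 and 3883 for DTPA against SA, against 2395 and 5598. With globin genes removed it was 725 and 333 with DFO and 1484 and 1046 with SA.

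No pairing by replicate number was seen: 0 of 18 same-numbered pairs had a correlation of deviations over 0.1 (-0.043 to 0.054). A weak pairing could stay under this bound. With the replicate block, 45, 32 and 10 members were called with DTPA, DFO and SA against control, 46 with DTPA against DFO, 45 with DTPA against SA and 17 with DFO against SA. The block ended the DFO calls of Cdc25b (adjusted p = 0.0524), Espl1 (0.0649), Kif23 (0.0724) and Ncaph (0.0605). Counting limits the deepest falls, where few reads remain with DTPA.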
